A study of Mus musculus with 12 samples.

Results

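The hepatic mRNA expression of 9 genes that sense bile acids and foreign compounds, or that relay those signals, was compared between mice fed norursodeoxycholic acid (norUDCA) and mice fed chow. The genes were chosen by symbol from the 35275 genes of the deposited count table and were Nr1i3, Nr1i2, Nr1h4, Nr0b2, Nr5a2, Rxra, Fgfr4, Klb and Mafg. Membership was decided by the symbol alone, with no threshold on a measured value. However, the 9 genes and the gene lists used below were chosen with earlier results of these data known. The shares of called genes given below are therefore descriptive and no independent support. All 9 genes were found and all passed the filter on low counts. NorUDCA livers came from male C57Bl/6J mice that received a diet with 0.5% norUDCA, a side chain-shortened form of ursodeoxycholic acid, for 1 week at 13 weeks of age. Chow livers came from male C57Bl/6J mice of the same age on chow alone, with no genetic change in either group. There were 6 libraries for each diet, norUDCA replicates 9, 10, 11, 12, 13 and 20 and chow replicates 2, 3, 7, 8, 16 and 17. The labels do not tie the libraries to separate animals, so the p-values below rest on the spread between libraries, which may in part be technical.

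Nuclear receptors are transcription factors that are switched on by small lipophilic ligands. FXR, encoded by Nr1h4, is the main bile acid receptor of hepatocytes and acts as a heterodimer with the retinoid X receptor RXR alpha, encoded by Rxra. Its activation in liver induces Nr0b2, whose product SHP lacks a DNA-binding domain and represses LRH-1, the product of Nr5a2, on bile acid synthesis genes. MafG, encoded by Mafg, is a small MAF protein that is also an FXR target and represses bile acid synthesis genes. In the intestine FXR induces the hormone FGF15, which acts on hepatocytes through the receptor tyrosine kinase FGFR4 and its co-receptor beta-Klotho, encoded by Klb. CAR, encoded by Nr1i3, and PXR, encoded by Nr1i2, also pair with RXR and induce enzymes and transporters of drug and bile acid disposal. A change in the mRNA of such a receptor is not a measure of its activity, which depends on ligands and protein partners.

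The sequence just before the start site is shown for Nr1i3 and Nr1h4, the genes whose mRNA differed at an adjusted p under 0.05 (edgeR). It is also shown for Nr0b2, the gene with the widest spread between libraries. Each sequence holds the 250 bases upstream of a RefSeq start on GRCm38.p6, written in the direction of transcription, with motif matches in capitals. RefSeq promoters were at hand for all 9 genes, with 2 starts for Nr5a2 and 2 for Rxra. Both strands were searched for AGGTCA, the hexamer that RXR heterodimers recognise. The extended hexamer TCAAGGTCA, which LRH-1 recognises as a monomer, contains it, so those searches overlap. The letters TGCTGA, part of the element that MAF proteins bind, and the E box CACGTG were searched as well. Only exact letters were matched, so a site that differs in any letter is not marked, and a missing match does not mean a missing site.
Nr1i3, chr1:171213720-171213969, plus strand: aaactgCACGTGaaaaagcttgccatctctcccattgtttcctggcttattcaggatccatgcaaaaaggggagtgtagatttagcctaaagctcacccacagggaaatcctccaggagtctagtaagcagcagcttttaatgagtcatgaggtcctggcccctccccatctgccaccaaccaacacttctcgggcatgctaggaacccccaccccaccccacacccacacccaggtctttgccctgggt
Nr1h4, chr10:89506659-89506908, minus strand: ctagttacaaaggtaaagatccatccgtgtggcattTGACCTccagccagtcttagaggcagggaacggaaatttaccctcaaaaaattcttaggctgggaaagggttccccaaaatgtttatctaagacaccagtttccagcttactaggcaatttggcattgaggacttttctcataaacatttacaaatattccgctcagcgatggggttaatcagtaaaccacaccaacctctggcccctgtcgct
Nr0b2, chr4:133553126-133553375, plus strand: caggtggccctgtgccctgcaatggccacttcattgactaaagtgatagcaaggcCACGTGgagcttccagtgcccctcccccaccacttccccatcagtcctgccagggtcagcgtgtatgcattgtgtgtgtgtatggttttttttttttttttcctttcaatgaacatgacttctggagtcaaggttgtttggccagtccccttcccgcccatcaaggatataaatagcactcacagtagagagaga
In Nr1i3 the capitals mark an E box at positions -244 to -239 from the start. In Nr1h4 they mark AGGTCA read from the opposite strand at -214 to -209, and this RefSeq start lies inside the gene span of the deposited table. In Nr0b2 they mark an E box at -195 to -190. Among 32851 RefSeq promoters of this length the hexamer occurred in 14.02% and the E box in 6.02%. Among the 11 promoters of the 9 genes the hexamer was in 3 (Nr1h4, Nr5a2 and Rxra) and the E box in 3 (Nr1i3, Nr0b2 and Mafg). The extended hexamer occurred in 0.387% of all promoters and the MAF letters in 16.1%, and neither was in the 11. Pairs of the hexamer as direct repeats spaced by 1, 3, 4 or 5 bases, as an inverted repeat spaced by 1 or as an everted repeat spaced by 6 occurred in at most 0.0335% of all promoters and in none of the 11.

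Abundance is given in CPM, counts brought to an equal library size by TMM factors, which rest on the assumption that the bulk of genes did not differ between the diets. To compare genes with each other, CPM were divided by the deposited gene length in kilobases. By this level per kilobase Rxra was the most abundant of the 9 genes in both diets, with 84.7 ± 8.50 in norUDCA livers and 95.4 ± 5.04 in chow livers (SD, n = 6 each). In norUDCA livers the order continued with Nr1h4 at 61.7 ± 6.85, Nr1i2 at 56.7 ± 6.02, Nr1i3 at 30.3 ± 2.88, Mafg at 16.6 ± 2.44, Fgfr4 at 10.97 ± 0.682, Nr0b2 at 10.7 ± 4.50, Nr5a2 at 10.7 ± 0.515 and Klb at 10.5 ± 1.53 CPM per kilobase. In chow livers Rxra was followed by Nr1i2 at 46.3 ± 5.96, Nr1h4 at 44.5 ± 5.57, Mafg at 14.97 ± 2.34, Nr0b2 at 12.5 ± 6.07, Nr1i3 at 11.9 ± 2.07, Fgfr4 at 11.8 ± 1.202, Klb at 10.5 ± 2.49 and Nr5a2 at 9.42 ± 1.24 CPM per kilobase. Nr1i3 thus held rank 4 in norUDCA livers and rank 6 in chow livers. By this scale Nr1i3 lay above 86.8% of the tested genes in norUDCA livers and above 72.3% in chow livers. Most neighbours in these orders overlapped. In norUDCA livers the libraries of neighbouring genes were separate between Rxra and Nr1h4, between Nr1i2 and Nr1i3, between Nr1i3 and Mafg and between Mafg and Fgfr4. In chow livers they were separate between Rxra and Nr1i2 and between Nr1h4 and Mafg. The ranks depended in part on the gene length used. With the length of all exons in GENCODE M21, Nr1i3 held rank 4 in norUDCA livers and rank 7 in chow livers. By that length Nr1i2 at 56.7 stood above Nr1h4 at 53.9 CPM per kilobase in norUDCA livers.

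**Figure D1:**
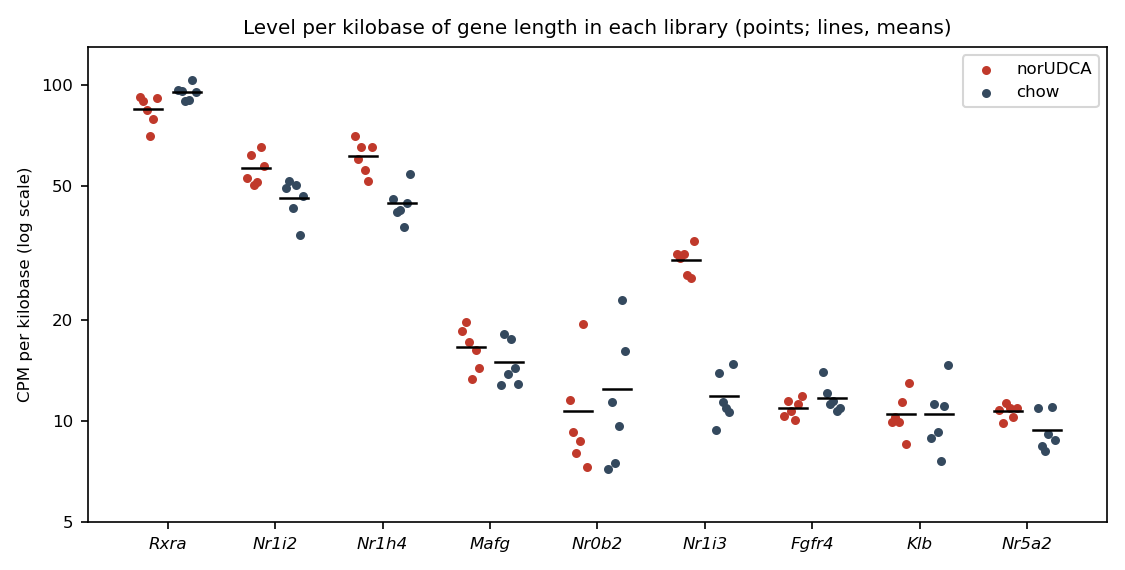
Level of each gene in CPM per kilobase of deposited gene length on a log axis, with 6 norUDCA libraries left of 6 chow libraries for each gene and a line at each mean. Rxra lies highest in both diets, and the norUDCA libraries of Nr1i3 stand near 30.3, apart from its chow libraries near 11.9.

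Of the 9 genes 2, Nr1i3 and Nr1h4, were called at an adjusted p under 0.05 (22.2%), against 15.3% of the 12378 genes tested. Both were higher in norUDCA livers, a direction called for 6.73% of all tested genes. None of the 9 was called lower by edgeR, against 8.62% of all tested genes, and Rxra alone was lower at an unadjusted p under 0.05. No alternative analysis, DESeq2 and limma-voom included, called any of the 9 lower. Nr1i3 was the only one whose norUDCA and chow libraries did not overlap (11.1% of the 9 genes, against 7.66% of all tested genes). With 9 genes, 1 gene makes up 11.1%, and no weight is put on these shares. At an unadjusted p under 0.05, 5 of the 9 genes stood out (Nr1i3, Nr1i2, Nr1h4, Nr5a2 and Rxra), which is 55.6%, against 30% of all tested genes.

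**Figure D2:**
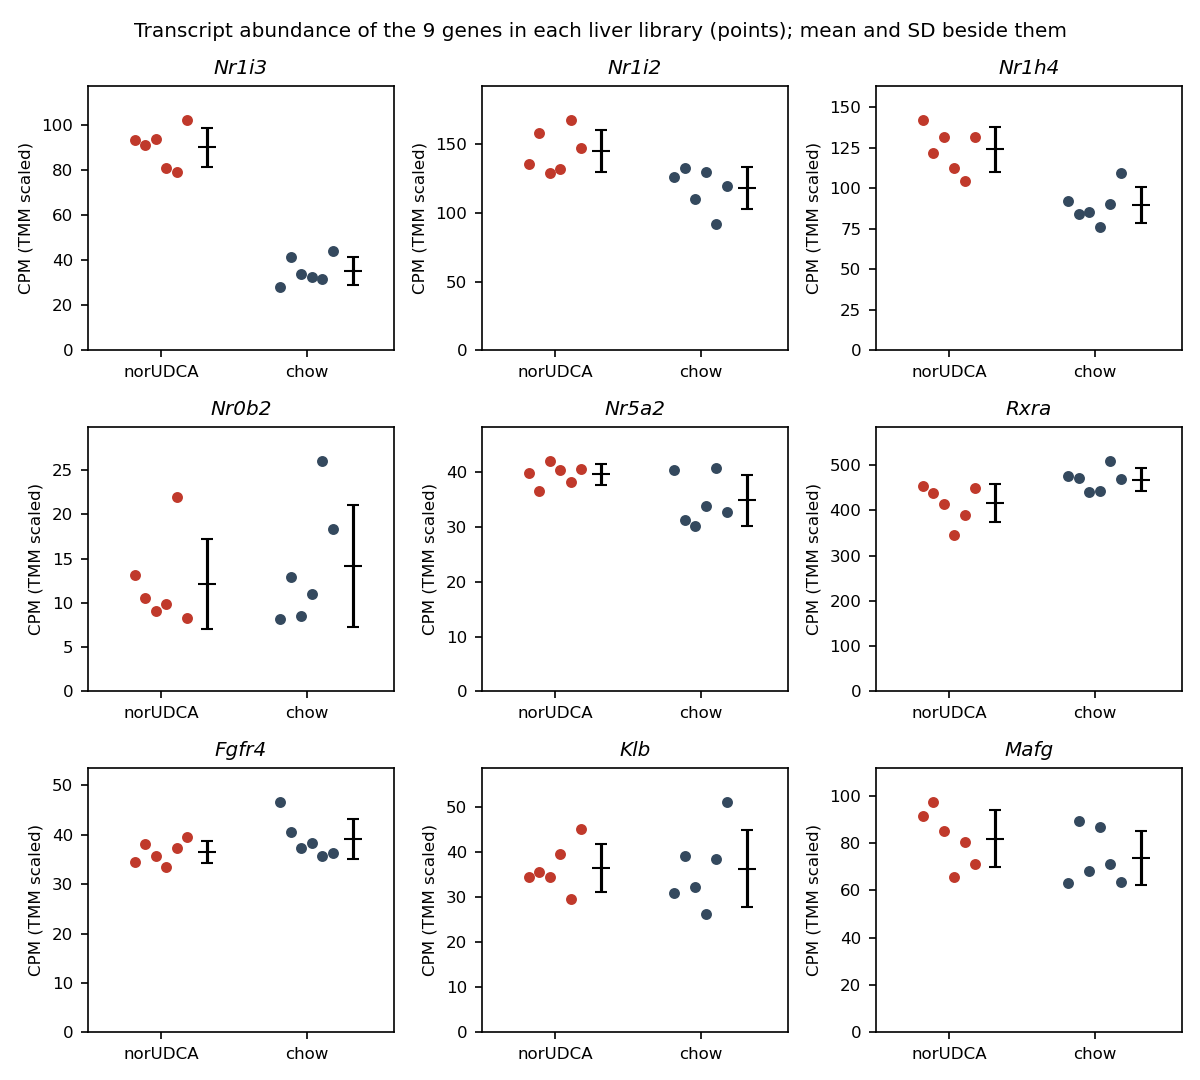
Abundance of each gene in CPM with TMM scaling, 1 point per library in the order of the replicate numbers, norUDCA left of chow, with the mean and SD beside the points. Nr1i3 has no overlap between the diets, and Nr0b2 has 1 norUDCA library at 21.99 CPM and 2 chow libraries at 25.96 and 18.3 CPM above the others.

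Among the xenobiotic and bile acid sensors, the mRNA of CAR differed most. Nr1i3 (ENSMUSG00000005677, chromosome 1, 171213970 to 171220701, plus strand in the deposited coordinates) had 93.6, 91.4, 93.9, 81.1, 79.4 and 102 CPM in norUDCA livers 9, 10, 11, 12, 13 and 20, against 28.0, 41.6, 34.1, 32.7, 31.7 and 44.0 CPM in chow livers 2, 3, 7, 8, 16 and 17. The lowest norUDCA library, replicate 13, stood well above the highest chow library, replicate 17. The means were 90.3 ± 8.60 CPM in norUDCA livers and 35.3 ± 6.16 CPM in chow livers (SD, n = 6 each), a 2.55-fold difference with a 95% interval of 2.17 to 2.998 (edgeR quasi-likelihood test, log2 fold change 1.35 ± 0.11 SE, Benjamini-Hochberg adjusted p = 2.37e-06). These levels rested on 1242 to 1652 counts per norUDCA library and 335 to 565 per chow library. By p Nr1i3 ranked 20th among the tested genes, and by the size of its log2 fold change 238th. It was called in all 22 alternative analyses, with log2 fold changes of 1.29 to 1.501. The gene Tomm40l, which encodes a mitochondrial outer membrane import protein, runs on the opposite strand and shares 2900 bases with Nr1i3, and whether counting used strand is not stated. Tomm40l had 4.54 ± 0.593 CPM in norUDCA livers and 4.10 ± 0.700 CPM in chow livers (SD, n = 6 each; edgeR, log2 fold change 0.15, adjusted p = 0.542), far below Nr1i3 in every library.

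The mRNA of FXR was moderately higher. Nr1h4 (ENSMUSG00000047638, chromosome 10, 89454234 to 89533585, minus strand) had 142, 122, 132, 113, 105 and 132 CPM in norUDCA livers 9, 10, 11, 12, 13 and 20, against 92.4, 84.5, 85.6, 76.0, 90.1 and 109 CPM in chow livers 2, 3, 7, 8, 16 and 17. Only the lowest norUDCA library, replicate 13, fell below the highest chow library, replicate 17. The means were 124 ± 13.8 CPM in norUDCA livers and 89.7 ± 11.2 CPM in chow livers (SD, n = 6 each), a 1.38-fold difference with a 95% interval of 1.204 to 1.59 (edgeR, log2 fold change 0.47 ± 0.094 SE, adjusted p = 0.00425). All 22 alternative analyses called it, with adjusted p-values up to 0.0117.

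The mRNA of PXR lay at the threshold. Nr1i2 (ENSMUSG00000022809, chromosome 16, 38248323 to 38294824, minus strand) had 135, 158, 129, 132, 167 and 147 CPM in norUDCA livers 9, 10, 11, 12, 13 and 20, against 126, 132, 110, 129, 91.6 and 119 CPM in chow livers 2, 3, 7, 8, 16 and 17. The diets overlapped between 129 and 132 CPM. The means were 145 ± 15.4 CPM in norUDCA livers and 118 ± 15.2 CPM in chow livers (SD, n = 6 each; edgeR, log2 fold change 0.29 ± 0.096 SE, 95% interval of the fold 1.06 to 1.41, adjusted p = 0.0531). It was called in 12 of 22 alternatives, whose adjusted p-values ran from 0.00473 to 0.105, and its log2 fold change was above 0 in all of them. Leaving out norUDCA 9, 11 or 12 or chow 3 brought a call (log2 fold changes 0.33 to 0.34), and leaving out chow 16, its lowest library, gave 0.23.

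Their common partner RXR alpha was not called. Rxra (ENSMUSG00000015846, chromosome 2, 27676440 to 27762957, plus strand) had 454, 439, 415, 346, 390 and 449 CPM in norUDCA livers 9, 10, 11, 12, 13 and 20, against 475, 472, 440, 443, 508 and 469 CPM in chow livers 2, 3, 7, 8, 16 and 17. NorUDCA livers 10, 11, 12 and 13 lay below all chow livers, replicate 10 only just. The means were 416 ± 41.7 CPM in norUDCA livers and 468 ± 24.7 CPM in chow livers (SD, n = 6 each; edgeR, log2 fold change -0.17 ± 0.077 SE, adjusted p = 0.149). Its log2 fold change was -0.02 with scaling by total counts. The paralogue Rxrb had 30.7 ± 3.81 CPM in norUDCA livers and 29.7 ± 3.76 CPM in chow livers (SD, n = 6 each; edgeR, adjusted p = 0.792), whereas Rxrg was higher at 4.74 ± 1.05 CPM in norUDCA livers and 2.78 ± 0.789 CPM in chow livers (SD, n = 6 each; edgeR, adjusted p = 0.0224). Without chow 8 Rxrg had an adjusted p of 0.0505.

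**Figure D3:**
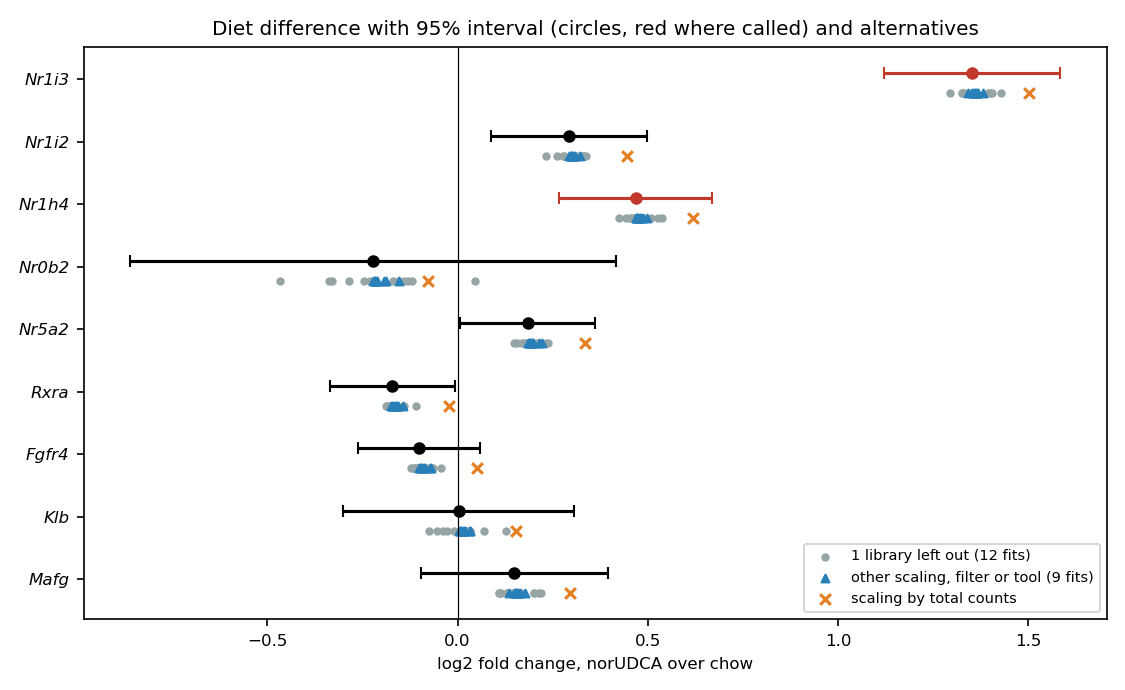
Log2 fold change of norUDCA over chow for the 9 genes, circles with 95% intervals from edgeR, red where called, and below each circle the alternatives. The interval of Nr1i3 lies far above 0, those of Nr0b2, Fgfr4, Klb and Mafg include 0, and scaling by total counts shifts every gene to the right.

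Of the genes of hepatic feedback, none was called. Nr0b2 (ENSMUSG00000037583, chromosome 4, 133553376 to 133556536, plus strand), the FXR-induced repressor SHP, had 13.1, 10.5, 9.12, 9.88, 21.99 and 8.29 CPM in norUDCA livers 9, 10, 11, 12, 13 and 20, against 8.19, 13.0, 8.52, 10.9, 25.96 and 18.3 CPM in chow livers 2, 3, 7, 8, 16 and 17. NorUDCA liver 13 and chow livers 16 and 17 stood above the rest. The means were 12.2 ± 5.10 CPM in norUDCA livers and 14.1 ± 6.87 CPM in chow livers (SD, n = 6 each; edgeR, log2 fold change -0.22 ± 0.30 SE, adjusted p = 0.667). The interval of its fold, 0.551 to 1.33, left room for a change in either direction, and its sign turned without chow 16 (log2 fold change 0.04, adjusted p = 0.938). Without norUDCA 13 its log2 fold change was -0.47. Its coefficient of variation was 41.9% in norUDCA livers and 48.5% in chow livers, against medians of 14.1% and 16.7% over all tested genes and at most 14.7% and 23.8% among the other 8 genes.

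Nr5a2 (ENSMUSG00000026398, chromosome 1, 136843584 to 136960427, minus strand), the gene of LRH-1, had 39.9, 36.6, 41.9, 40.4, 38.2 and 40.6 CPM in norUDCA livers 9, 10, 11, 12, 13 and 20, against 40.4, 31.2, 30.3, 33.9, 40.7 and 32.6 CPM in chow livers 2, 3, 7, 8, 16 and 17. Chow livers 2 and 16 reached the level of the norUDCA livers and the other 4 lay below all of them. The means were 39.6 ± 1.91 CPM in norUDCA livers and 34.8 ± 4.597 CPM in chow livers (SD, n = 6 each; edgeR, log2 fold change 0.18 ± 0.083 SE, adjusted p = 0.152). Scaling by total counts called it (log2 fold change 0.34, adjusted p = 0.0116). That scaling moved the median of all tested genes by 0.15.

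Mafg (ENSMUSG00000051510, chromosome 11, 120625117 to 120633600, minus strand) ran from 65.6 to 97.1 CPM in norUDCA livers with a mean of 81.7 ± 11.99 CPM, against 63.2 to 89.3 CPM in chow livers with a mean of 73.7 ± 11.5 CPM (SD, n = 6 each; edgeR, log2 fold change 0.15 ± 0.11 SE, adjusted p = 0.419). The diets overlapped over most of this range. Sirt7, a deacetylase gene on the same strand that shares 124 bases with Mafg, had 35.8 ± 2.81 CPM in norUDCA livers and 36.6 ± 9.58 CPM in chow livers (SD, n = 6 each; edgeR, adjusted p = 0.910).

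The FGF15 receptor genes were close to equal in the diets. Fgfr4 (ENSMUSG00000005320, chromosome 13, 55152640 to 55168759, plus strand) ran from 33.6 to 39.5 CPM in norUDCA livers with a mean of 36.5 ± 2.27 CPM, against 35.7 to 46.5 CPM in chow livers with a mean of 39.1 ± 3.996 CPM (SD, n = 6 each; edgeR, log2 fold change -0.10 ± 0.075 SE, adjusted p = 0.400), and its log2 fold change was 0.05 with scaling by total counts. Klb (ENSMUSG00000029195, chromosome 5, 65348386 to 65384003, plus strand) ran from 29.6 to 45.1 CPM in norUDCA livers with a mean of 36.5 ± 5.31 CPM, against 26.3 to 51.0 CPM in chow livers with a mean of 36.4 ± 8.64 CPM (SD, n = 6 each; edgeR, log2 fold change 0.003 ± 0.14 SE, adjusted p = 0.992). The 95% intervals of the folds were 0.834 to 1.04 for Fgfr4 and 0.812 to 1.24 for Klb. The ligand gene Fgf15 had 0 counts in all 12 livers and was not tested.

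Because the total counts differed between the diets, the genes were also compared as ratios of counts within a library, which no scaling can move. The receptor genes stood higher relative to Rxra in norUDCA livers. Rxra itself had a log2 fold change of -0.17 (edgeR, adjusted p = 0.149). These ratios do not tell a higher receptor gene from a lower Rxra. Nr1i3 over Rxra was 0.218 ± 0.0132 in norUDCA livers and 0.0757 ± 0.0138 in chow livers (SD, n = 6 each; two-sided exact permutation test, p = 0.00216, adjusted p = 0.00379 over 7 ratios), with a log2 difference of 1.54. Nr1h4 over Rxra was 0.299 ± 0.0231 in norUDCA livers and 0.192 ± 0.0224 in chow livers, and Nr1i2 over Rxra was 0.351 ± 0.0489 in norUDCA livers and 0.254 ± 0.0392 in chow livers (SD, n = 6 each; exact permutation p = 0.00216 and adjusted p = 0.00379 for both). In these 3 ratios every norUDCA library exceeded every chow library, and a comparison of 6 against 6 libraries cannot reach a p below 0.00216 in this test. Thus Nr1i2 overlapped between the diets on its own and did not overlap as a ratio to Rxra, which ran from 0.298 to 0.428 in norUDCA livers and from 0.180 to 0.292 in chow livers. The log2 difference was 0.47 for this ratio and 0.29 for Nr1i2 on its own.

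Nr1i3 also stood higher relative to Nr1i2, at 0.630 ± 0.0943 in norUDCA livers and 0.302 ± 0.0555 in chow livers (SD, n = 6 each; exact permutation p = 0.00216, adjusted p = 0.00379), with no overlap. Nr1h4 over Nr0b2 was 11.5 ± 3.85 in norUDCA livers and 7.37 ± 2.85 in chow livers (SD, n = 6 each; exact permutation p = 0.0974, adjusted p = 0.136). Without norUDCA 13 its log2 difference of 0.65 became 0.88 (exact permutation, adjusted p = 0.0212). With any other library left out the adjusted p ran from 0.0788 to 0.273 (exact permutation), the latter without chow 16, where the log2 difference was 0.45. Nr0b2 over Nr5a2 was 0.310 ± 0.138 in norUDCA livers and 0.404 ± 0.168 in chow livers (SD, n = 6 each; exact permutation, adjusted p = 0.356). Fgfr4 over Klb was 1.02 ± 0.149 in norUDCA livers and 1.13 ± 0.306 in chow livers (SD, n = 6 each; exact permutation, adjusted p = 0.530). These last 3 ratios overlapped between the diets.

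**Figure D4:**
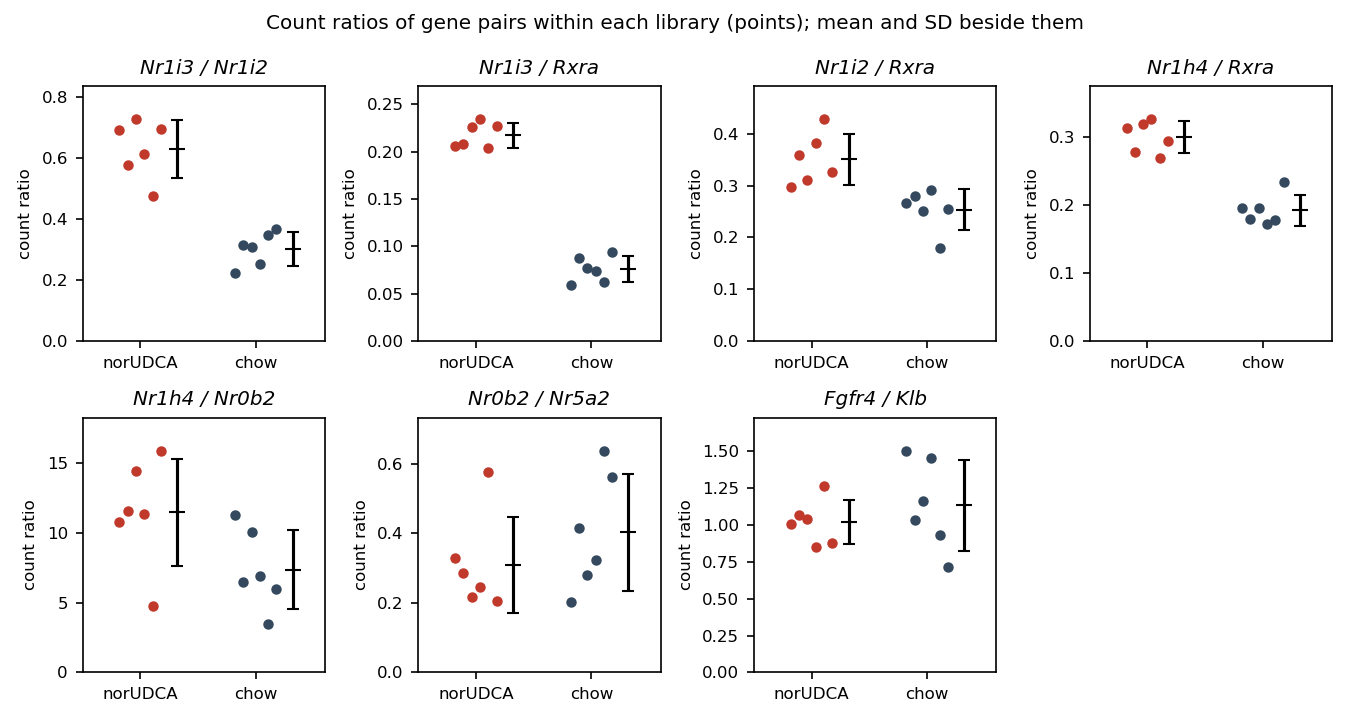
Ratio of counts of 2 genes within each library, 1 point per library, norUDCA left of chow, with the mean and SD beside the points. The 4 ratios of the upper row have no overlap between the diets, and those of the lower row overlap.

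Among 15 tested receptors that pair with RXR, 3 were higher and 1 was lower (26.7%, against 15.3% of all tested genes). The median log2 fold change of the list was 0.22, against -0.001 over all tested genes. The list holds the members Nr1i3, Nr1i2 and Nr1h4, so its share and median in part repeat their results. Outside these members only Ppara was called higher and only Nr4a1 lower. With Nr1i3 and Nr1h4, Ppara was higher, the fatty acid receptor of hepatocytes, at 85.3 ± 16.7 CPM in norUDCA livers and 53.8 ± 5.71 CPM in chow livers (SD, n = 6 each; edgeR, adjusted p = 0.00171). Nr4a1, an immediate early gene, was lower at 15.7 ± 4.601 CPM in norUDCA livers and 26.7 ± 9.78 CPM in chow livers (SD, n = 6 each; edgeR, adjusted p = 0.0410). Its call was lost without norUDCA 9, 11, 12, 13 or 20, without chow 3, 8, 16 or 17 and in 3 further alternatives (adjusted p up to 0.0958). With scaling by total counts 5 of the 15 were higher and 0 lower, and 5 were higher without chow 3. Scaling by total counts called 2434 of the 12378 tested genes higher and 565 lower. All list counts under that scaling, here and below, stand against this background.

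Of 19 other tested nuclear receptors 5 were higher and 4 lower (47.4%, against 15.3% of all tested genes). With scaling by total counts 9 were higher and 0 lower, against 2434 higher and 565 lower of all 12378 tested genes. Among the higher ones were Esrrg, an orphan receptor, Rxrg and Nr6a1. Esrrg had 3.58 ± 0.806 CPM in norUDCA livers and 1.75 ± 0.680 CPM in chow livers (SD, n = 6 each; edgeR, adjusted p = 0.0106), with ranges that overlapped between the diets. Hnf4a, the hepatocyte identity factor that also acts on many of these genes, was lower at 603 ± 47.6 CPM in norUDCA livers and 734 ± 34.2 CPM in chow livers (SD, n = 6 each; edgeR, adjusted p = 0.0140), as were Nr2f6, Nr3c1, the glucocorticoid receptor, and Rora. The calls of Hnf4a and Nr2f6 were lost with scaling by total counts, those of Nr3c1 and Rora in 12 and 15 of 22 alternatives and that of Nr6a1 in 8. With 1 library left out, Nr3c1 lost its call without norUDCA 10, 11, 12, 13 or 20 or chow 2, 7, 8 or 16, Rora without any of the norUDCA livers or chow 2, 3, 16 or 17, and Nr6a1 without norUDCA 9, 11, 12, 13 or 20 or chow 2, 7 or 8. Over all alternatives the adjusted p reached 0.319 for Nr3c1, 0.294 for Rora and 0.0866 for Nr6a1. Without chow 8, 3 of the 19 were higher.

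The known target genes of the receptors were described beside them. Of 23 tested CAR and PXR targets 17 were higher and 1 lower (78.3%, against 15.3% of all tested genes), with a median log2 fold change of 0.88. Of the 23 targets 13 had no overlap between the diets, against 7.66% of all tested genes. Cyp3a11, the PXR-inducible P450, had 13612 to 17434 CPM in norUDCA livers and 1291 to 2741 CPM in chow livers (edgeR, adjusted p = 8.86e-08). The drug-metabolising Cyp2c55 and Ces2a and the uptake carrier Slco1a4 were called with log2 fold changes of 4.07, 1.97 and 2.88, and Abcc3, an exporter of conjugates, with 1.99. Ces2b was lower, with 0.680 ± 0.431 CPM in norUDCA livers and 5.30 ± 5.48 CPM in chow livers (SD, n = 6 each; edgeR, adjusted p = 0.00953), and missed the call with limma-voom (adjusted p = 0.0588). Cyp2b10, the usual readout of CAR, had 125, 121, 120.3, 124, 256 and 129 CPM in norUDCA livers 9, 10, 11, 12, 13 and 20, against 4.26, 99.97, 76.5, 107, 7.04 and 48.9 CPM in chow livers 2, 3, 7, 8, 16 and 17. The norUDCA livers other than replicate 13 lay close together and the chow livers were widely spread. Cyp2b10 was not called (edgeR, log2 fold change 1.35 ± 0.57 SE, adjusted p = 0.128), although its libraries did not overlap.

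Of 15 tested FXR-induced liver genes, the members Nr0b2 and Mafg among them, 1 was higher and 3 lower (26.7%, against 15.3% of all tested genes). The median log2 fold change of the list was -0.12. Pltp, a phospholipid transfer protein, was higher at 33.6 ± 6.62 CPM in norUDCA livers and 13.4 ± 5.47 CPM in chow livers (SD, n = 6 each; edgeR, adjusted p = 0.00171). The lower genes were Fga, Fgb and Fgg, close neighbours on chromosome 3 that encode the fibrinogen chains and are also acute-phase genes. Their log2 fold changes were -0.80, -0.87 and -0.91 (edgeR, adjusted p = 0.0382, 0.0178 and 0.0143), and Fga lost its call with scaling by total counts and without norUDCA 9, 10, 11, 12 or 20 or chow 2, 7 or 8 (adjusted p up to 0.0873). Abcb11, the bile salt export pump, had 757 ± 58.9 CPM in norUDCA livers and 637 ± 60.0 CPM in chow livers (SD, n = 6 each; edgeR, log2 fold change 0.25, adjusted p = 0.0546) and was called in 7 of 22 alternatives, among them the fit without norUDCA 9 (adjusted p = 0.0342). Slc51a and Slc51b, the subunits of a basolateral bile acid exporter, were too low to test. With scaling by total counts 2 of the 15 were higher and 2 lower.

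Among 8 tested end points of hepatic feedback in the making and uptake of bile acids, 2 were higher and 1 lower (37.5%, against 15.3% of all tested genes). The median log2 fold change of the list was 0.27. Akr1d1, the steroid 5-beta-reductase, had 247 ± 18.05 CPM in norUDCA livers and 120 ± 35.9 CPM in chow livers (SD, n = 6 each; edgeR, adjusted p = 0.00130). Slc10a1, which takes up conjugated bile acids from blood with sodium, was also higher (log2 fold change 0.48, adjusted p = 0.0102), and Cyp7b1, the oxysterol 7-alpha-hydroxylase, was lower (log2 fold change -1.58, adjusted p = 0.000243). Cyp7a1, the rate-limiting enzyme of synthesis, had 271, 98.3, 155, 127, 53.4 and 143 CPM in norUDCA livers 9, 10, 11, 12, 13 and 20, against 23.9, 46.2, 71.8, 36.1, 96.98 and 161 CPM in chow livers 2, 3, 7, 8, 16 and 17. The diets overlapped, and Cyp7a1 was not called (edgeR, adjusted p = 0.149) except without chow 17 (log2 fold change 1.36, adjusted p = 0.0354). Of 9 tested LRH-1 targets, Nr0b2 among them, 0 were higher and 1 was lower (11.1%, against 15.3% of all tested genes). The lower one was the HDL receptor gene Scarb1 (log2 fold change -0.59, edgeR, adjusted p = 0.000839). At an unadjusted p under 0.05, 3 of the 9 were higher and 1 lower, against 30% of all tested genes in either direction. DESeq2 called 1 higher and limma-voom none. With edgeR 2 were called higher with scaling by total counts, and 1 with upper quartile scaling, with TMM without the 50 most abundant genes, and without norUDCA 12 or 13 or chow 7 or 17.

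**Figure D5:**
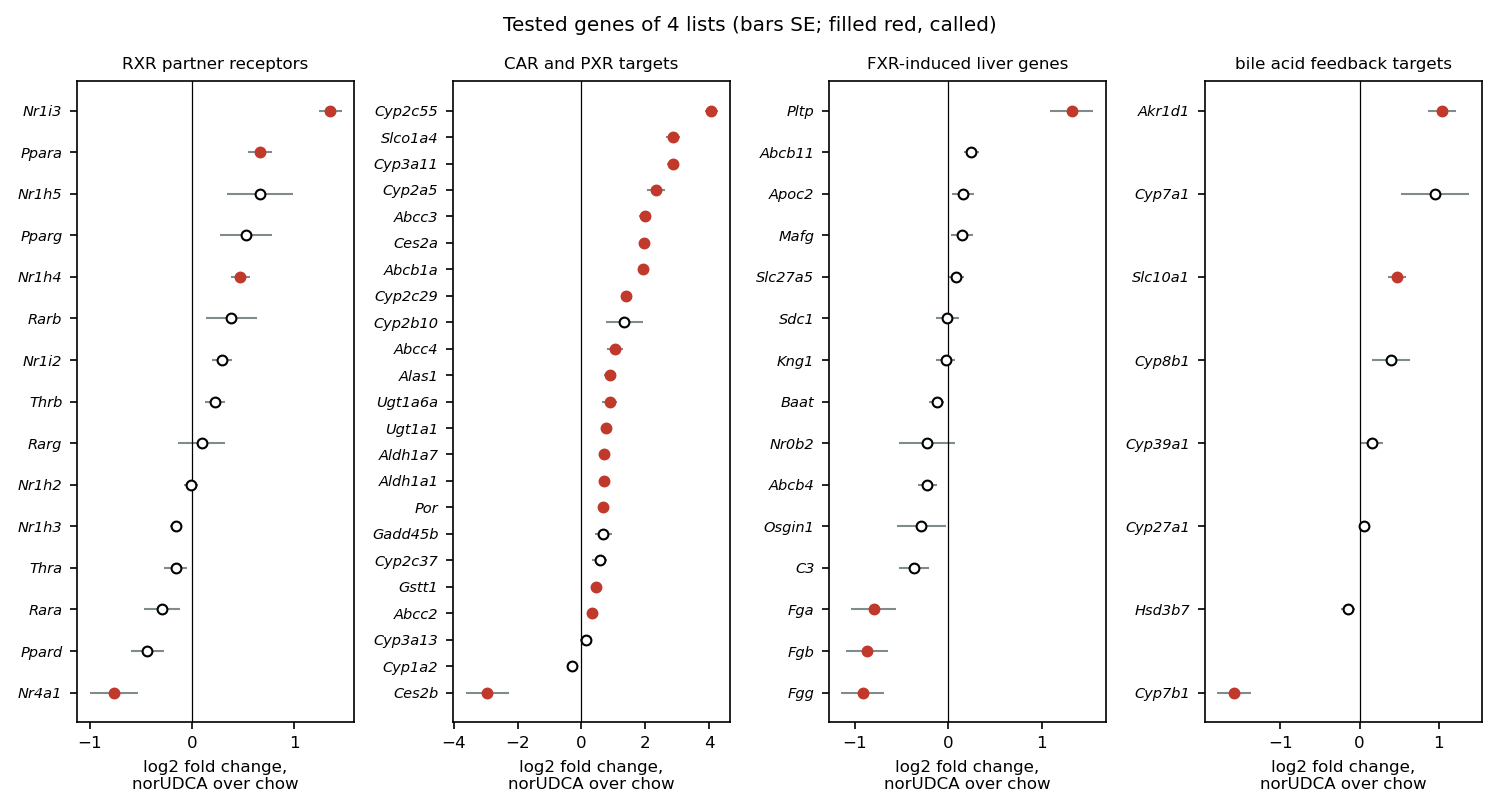
Log2 fold change of norUDCA over chow with its SE for each tested gene of 4 lists, filled red where called at an adjusted p under 0.05 and open otherwise. The horizontal scales differ between panels, and 17 of 23 CAR and PXR targets are called higher against 1 of 15 FXR-induced genes.

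Of 30 tested genes of FGF15 signalling, 0 were higher and 6 lower (20% of them, against 15.3% of all tested genes). The list also holds Fgfr4, Klb, other FGF receptors and the ligand gene Fgf1. At an unadjusted p under 0.05, 2 were higher and 6 lower, against 30% of all tested genes in either direction. DESeq2 and limma-voom each called 1 higher. Among the lower ones were Map2k1 and Hras, which relay the signal to the MAP kinases, and Spred2, an inhibitor of that cascade, with log2 fold changes of -0.34, -0.37 and -0.47 (edgeR, adjusted p = 0.00137, 0.00461 and 0.00635). With scaling by total counts 4 of the 30 were higher and 3 lower, against 2434 higher and 565 lower of all 12378 tested genes. In the small MAF network, which holds Mafg and the partners of MafG, edgeR called 0 of 9 genes, against 15.3% of all tested genes. At an unadjusted p under 0.05, 2 were higher and 1 lower, against 30% of all tested genes in either direction. DESeq2 called 2 higher and limma-voom 1. With edgeR 3 were called higher with scaling by total counts, 2 with upper quartile scaling and 1 with TMM without the 50 most abundant genes, as was 1 without norUDCA 9 or 11 or chow 3 or 16. Of 21 receptor coregulators 1 was higher and 1 lower (9.52%, against 15.3% of all tested genes). The higher one was Gps2, a corepressor subunit (log2 fold change 0.39, edgeR, adjusted p = 0.0229). With scaling by total counts 2 were higher, and without chow 17, 2 were lower. Of 11 genes that hold CAR in the cytoplasm or signal to it, 2 were lower and 0 higher by edgeR (18.2%, against 15.3% of all tested genes). DESeq2 and limma-voom gave the same counts. At an unadjusted p under 0.05 by edgeR, 1 was higher and 3 lower, against 30% of all tested genes in either direction. The lower ones were the chaperone gene Hsp90aa1 (log2 fold change -0.71, edgeR, adjusted p = 0.00542) and Egfr, whose product keeps CAR inactive (log2 fold change -1.04, edgeR, adjusted p = 0.0188). With scaling by total counts 2 of the 11 were higher and 2 lower.

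Within a diet, 6 relations between a regulator and a target were computed over the 6 libraries, 12 in all. None passed after adjustment over the 12. The closest was Nr0b2 with Cyp8b1, the sterol 12-alpha-hydroxylase that SHP is known to repress. In norUDCA livers Pearson's r of log2 CPM was -0.894 (exact permutation p = 0.0667, adjusted p = 0.370; Spearman's rho -0.543, exact p = 0.297, adjusted p = 0.711), and without the 2 libraries farthest from the median of Nr0b2 it was -0.294. In chow livers r was 0.907 (exact permutation p = 0.0125, adjusted p = 0.150; rho 0.943, exact p = 0.0167, adjusted p = 0.200), and 0.966 without the 2 farthest. The norUDCA relation rested on replicate 13, which had the highest Nr0b2 and, at 214 CPM, the lowest Cyp8b1 of its diet. The difference between the diets was not tested.

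Across the 12 livers, the genes whose deviations from their diet means were most like those of a member were found among 11832 genes of at least 1 CPM, as a description only, since the libraries share depth and scaling. For Nr1i3 they included Slc16a7 (r = 0.94), and they were for Nr1i2 Klhl15 and Aebp2 (r = 0.90 and 0.87), for Nr1h4 D15Ertd621e and Rab5a (r = 0.89 and 0.87) and for Nr0b2 Gm4963 and Unc5a (r = 0.92 for both). Of the genes named here Slc16a7, a monocarboxylate carrier, was the only one called between the diets (log2 fold change 1.59, edgeR, adjusted p = 3.97e-06). Among the members themselves the largest such r was 0.69, between Nr1i3 and Klb. Each r with a gene outside the members was picked as among the highest of 11832 over 12 livers. Such a choice by itself favours high values, and no r was tested.

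The libraries differed with the diet. Total counts were 14065837 to 15342922 in norUDCA livers and 12209706 to 13715026 in chow livers, and the 50 most abundant genes took 31.5 to 34.3% of counts in norUDCA livers and 35.6 to 37.2% in chow livers (for each, p = 0.00216 in a two-sided exact permutation test and 0.00289 adjusted for 4 such measures). The marker counts that follow stand against 6.73% of all tested genes called higher and 8.62% called lower. Of 7 hepatocyte markers 3 were lower and 0 higher, with a summed level of 70952 to 85668 CPM in norUDCA livers and 71170 to 88939 CPM in chow livers. Of 10 Kupffer cell and macrophage markers 5 were lower, at 99.4 to 246 CPM in norUDCA livers and 169 to 414 CPM in chow livers. Of 7 stellate cell markers 2 were higher, at 147 to 210 CPM in norUDCA livers and 108 to 190 CPM in chow livers. Of 5 tested cholangiocyte markers 2 were lower, Sox9 and Spp1. The list summed to 32.8 to 41.5 CPM in norUDCA livers and 33.0 to 103 CPM in chow livers. Most of this sum was Spp1, with means of 28.5 CPM in norUDCA livers and 53.6 CPM in chow livers. Krt19, Epcam and Krt7 were not called (log2 fold changes 0.31, 0.16 and -0.09). The 7 endothelial markers, at 126 to 184 CPM in norUDCA livers and 124 to 205 CPM in chow livers, held 0 calls by edgeR. At an unadjusted p under 0.05, 1 of them was lower, against 30% of all tested genes in either direction. Of 6 lymphocyte markers 1 could be tested. Of 5 red blood cell markers 1 was lower, Alas2, the erythroid enzyme of haem synthesis, with 76.3 ± 11.4 CPM in norUDCA livers and 118 ± 15.6 CPM in chow livers (SD, n = 6 each; edgeR, adjusted p = 0.00137), and the list summed to 209.9 to 300.3 CPM in norUDCA livers and 242 to 390.4 CPM in chow livers. Of 5 pancreatic markers 2, Cpa1 and Amy2a5, were at 0 in all livers, and Prss2 and Pnlip had at most 1 count in any library. Only 1 could be tested, Cela1, an elastase gene, which is therefore not read here as a sign of pancreatic tissue. Cela1 was lower with 14.3 ± 1.74 CPM in norUDCA livers and 33.7 ± 4.97 CPM in chow livers (SD, n = 6 each; edgeR, log2 fold change -1.24, adjusted p = 6.2e-06) and did not overlap between the diets. The part of these differences in the results above was not tested, and in bulk liver fewer cells of a type and less RNA per cell cannot be told apart.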

How the data were processed

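RNA was isolated from frozen livers with TRIzol, and NEBNext reagents were used to build the Illumina libraries. The authors deposited raw read counts per gene with a gene length. CASAVA, STAR and DESeq2 are listed in the submitters' processing notes. Not given in the sources used here were versions, genome build, annotation, counting tool and strand setting. All 9 gene identifiers are in GENCODE M21 on GRCm38, 7 with the same start and end. Other deposited tables hold the authors' comparisons (log2 fold changes, p-values, FPKM, fold changes), some for a group that the labels do not define, and were not used.

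The deposited counts were tested with edgeR 4.0.16 (R 4.3.3) by quasi-likelihood F test after filterByExpr and TMM scaling, 6 norUDCA against 6 chow libraries with no covariate, over 12378 of 35275 genes, with Benjamini-Hochberg adjustment and calls at 0.05. Groups came from the labels. The fit was tested on simulated counts with known changes. The SE is the log2 fold change over the root of F, and intervals use the degrees of freedom of the fit. Single values were tested by two-sided exact permutation over all regroupings of the 12 libraries, or over all pairings for relations. Total counts were 12209706 to 15342922 per library. Intervals are for the difference between the diets and rest on the estimated spread between libraries.

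Alternatives were RLE, upper quartile and total count scaling, TMM without the 50 most abundant genes, no low-count filter, a filter of 1 CPM in 6 libraries, DESeq2 1.42.0, limma-voom (limma 3.58.1) with and without sample weights, a robust fit, and each library left out.

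The 9 genes and all lists were chosen with earlier results of these data known. Text names all 9 genes, up to 4 called genes per list and direction by p, the relation targets, genes that overlap a member, and the 2 genes most like Nr1i3, Nr1i2, Nr1h4 and Nr0b2. Abcc3, Rxrb, Nr6a1, Slc51a, Slc51b, Fgf15, Cpa1, Amy2a5, Prss2, Pnlip, Cela1 and Alas2 were named after their values were seen. Some genes that this rule names are not reported here. Of 24 CAR and PXR targets 23 were found in the table.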

Additional observations from a re-analysis of the deposited data

Results flagged for a closer look

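Nr0b2 reached 21.99 CPM in norUDCA liver 13, while the next highest norUDCA liver, replicate 9, had 13.1 CPM. The gap made up 0.648 of the range of the norUDCA livers, more than Dixon's 95% limit allows for 6 samples. Of 18 groups examined, 9 genes in 2 diets, this was the only such case, and chance gives about 1 in 20. The same liver had the lowest Nr1i3, Nr1h4, Klb, Cyp7a1 and Cyp8b1 and the highest Nr1i2 and Cyp2b10 of the norUDCA livers. Without it Nr0b2 had a log2 fold change of -0.47 (edgeR, adjusted p = 0.282).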

How the results depend on the processing

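Nr1i3 and Nr1h4 kept their direction and call in all 22 alternatives. Nr1i2 gained a call with RLE scaling (0.30, adjusted p = 0.0455), upper quartile scaling (0.32), scaling by total counts (0.44), TMM without the 50 most abundant genes (0.31), the filter of 1 CPM (0.30), DESeq2 (0.30), limma-voom with sample weights (0.30) and the robust fit (0.29), and stayed uncalled with limma-voom and without the filter. Its log2 fold changes with 1 library left out ran from 0.23 to 0.34. Scaling by total counts called 2999 genes, 81.2% of them higher against 43.8% of 1900 with TMM, called Nr5a2 (0.34) and turned Fgfr4 (0.051) and Sirt7 (0.11). Sirt7 also turned with limma-voom, at 0.0046 unweighted and 0.013 weighted. The cause of these changes was not tested beyond the shift of 0.15 in the median gene. With 1 library left out, log2 fold changes ran from -0.075 to 0.13 for Klb, from -0.47 to 0.045 for Nr0b2, from -0.12 to 0.060 for Sirt7 and from -0.0047 to 0.10 for Rxrb, and the log2 difference of Nr1h4 over Nr0b2 ran from 0.45 to 0.88. Of 440 list counts under the alternatives 67 differed by more than 1.5 times from those with TMM. No paired analysis was possible because the diets share no replicate numbers. The spread of Nr0b2 between libraries, from 8.19 to 25.96 CPM, limits what can be said of it.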
